A study of Mus musculus with 12 samples.

Results

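The rows described here are the gene segments of the T cell receptor: 239 of the 24561 rows of the count table, chosen by symbol as the V, D, J and constant segments of the alpha, beta, gamma and delta loci. Of these, 225 rows held at least 1 count and 14 held none. RNA was sequenced from CXCR5hiPD-1hi follicular helper T (Tfh) cells of the OT-II line, whose transgenic receptor recognizes ovalbumin and is built from the V alpha 2 and V beta 5 families. The hosts were CD45.1 Sap-/- mice. Each was given C57BL/6 OT-II T cells of 1 genotype, CD4-CrexBcl6fl/+ (labelled BCL6-insufficient) or CD4-Cre (wild-type), and then a subcutaneous immunization with NP-OVA and LPS in alum. The sorted cells came from the draining lymph node 3 days after immunization. Each label had 3 recipient mice with 2 technical repeats of about 200 cells, which gave 12 libraries. Cells of both labels therefore carried the Cre recombinase driven by *Cd4* and the OT-II receptor, were studied in hosts without SAP, and differed by label only in the floxed *Bcl6* allele. A Sap-/- host still has T cells of its own, the number of donor mice is not given in the sources used here, and the age of the mice is not given either. If the recipients of a label shared a donor, label and donor cannot be told apart.

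Depth ranged from 3343375 to 8315722 counts per library with the BCL6-insufficient label and from 5240715 to 7266106 with the wild-type label. *Bcl6* itself was higher in the mice labelled BCL6-insufficient, at 149 ± 2.18 normalized CPM (CPM, counts scaled to library size, here after TMM scaling; SD, n = 3) against 62.4 ± 11.5, so every direction below rests on the labels. The genes of the sort gate were present in every mouse but lower with the BCL6-insufficient label, *Cxcr5* at 241 ± 17.7 against 317 ± 11.9 normalized CPM (log2 fold change -0.40, adjusted p = 0.00476, edgeR) and *Pdcd1* at 164 ± 6.96 against 220 ± 16.8 (-0.42, adjusted p = 0.00420), both without overlap. *Cd4* ranged from 336 to 589 over the mice. *Cd8a* held 2 counts in all 12 libraries together and *Foxp3* stayed between 2.36 and 5.78 normalized CPM. Both repeats of a mouse were added up, and every test compared mice, not libraries.

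A T cell receptor is a pair of chains, alpha with beta or gamma with delta. In the thymus, RAG enzymes join single V and J segments in the alpha and gamma genes, and V, D and J segments in the beta and delta genes, and RNA splicing then adds a constant segment. The V segment supplies much of the surface that meets the peptide and its MHC molecule, the J segment and the junction complete the binding loop, and the constant segment anchors the chain in the membrane beside the CD3 proteins. The delta genes lie inside the alpha locus on mouse chromosome 14, the beta locus is on chromosome 6, and the beta locus has a pair of D-J-constant clusters that end in *Trbc1* and *Trbc2*.

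The V alpha 2 family corresponds to the *Trav14* rows and the V beta 5 family to the *Trbv12* rows. Their sequences in GENCODE M21 (build GRCm38) are printed to show how much of each row is its own. *Trav14n-1* (chr14:53166626-53167178, plus strand) and *Trav14d-1* (chr14:52855614-52856166, plus strand) have the same 364 coding bases, while *Trav14-1* (chr14:53554022-53554558, plus strand) differs from them at 16 positions, which is 95.6% identity. *Trbv12-2* (chr6:41118851-41119364, plus strand) and *Trbv12-1* (chr6:41113550-41114067, plus strand) differ at 44 of 372 coding bases (88.2% identity). The last 300 coding bases follow, 5′ to 3′, and capitals mark the bases that differ from the other sequence of the pair (13 between the *Trav14* rows and 32 between the *Trbv12* rows).

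Trav14n-1: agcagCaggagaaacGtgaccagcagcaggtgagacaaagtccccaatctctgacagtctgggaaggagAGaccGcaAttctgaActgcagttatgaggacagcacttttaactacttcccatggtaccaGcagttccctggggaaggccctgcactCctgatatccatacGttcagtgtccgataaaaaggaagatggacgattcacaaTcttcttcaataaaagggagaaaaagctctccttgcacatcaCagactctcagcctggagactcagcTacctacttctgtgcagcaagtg

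Trav14-1: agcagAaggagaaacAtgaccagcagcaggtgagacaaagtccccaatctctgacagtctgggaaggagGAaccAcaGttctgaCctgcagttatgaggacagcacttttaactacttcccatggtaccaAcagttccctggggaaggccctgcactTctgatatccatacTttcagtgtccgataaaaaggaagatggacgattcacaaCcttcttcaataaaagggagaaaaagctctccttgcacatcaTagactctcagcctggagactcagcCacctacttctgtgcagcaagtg

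Trbv12-2: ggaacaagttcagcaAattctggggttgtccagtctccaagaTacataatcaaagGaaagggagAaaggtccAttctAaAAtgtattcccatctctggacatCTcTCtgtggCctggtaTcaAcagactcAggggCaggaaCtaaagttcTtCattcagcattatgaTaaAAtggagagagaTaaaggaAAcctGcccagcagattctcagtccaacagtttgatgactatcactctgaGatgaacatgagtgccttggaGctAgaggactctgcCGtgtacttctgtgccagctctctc

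Trbv12-1: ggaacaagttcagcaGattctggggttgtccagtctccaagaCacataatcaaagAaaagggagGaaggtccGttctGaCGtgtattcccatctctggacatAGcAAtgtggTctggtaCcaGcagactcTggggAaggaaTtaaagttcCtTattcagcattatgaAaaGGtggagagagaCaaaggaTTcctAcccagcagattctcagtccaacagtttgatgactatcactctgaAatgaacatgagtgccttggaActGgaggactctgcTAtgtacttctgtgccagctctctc

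The genes *Trbc1* (chr6:41538218-41539881, plus strand) and *Trbc2* (chr6:41546730-41548352, plus strand) are alike as well, with 23 differences in 518 coding bases. The last 240 coding bases hold 22 of these differences, again in capitals, and the 278 bases before them hold 1.

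Trbc1: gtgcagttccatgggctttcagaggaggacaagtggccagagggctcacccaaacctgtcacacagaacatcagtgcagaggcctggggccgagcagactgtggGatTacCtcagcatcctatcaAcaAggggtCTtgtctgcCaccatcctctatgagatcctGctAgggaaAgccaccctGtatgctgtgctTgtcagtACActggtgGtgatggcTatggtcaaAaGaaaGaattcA

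Trbc2: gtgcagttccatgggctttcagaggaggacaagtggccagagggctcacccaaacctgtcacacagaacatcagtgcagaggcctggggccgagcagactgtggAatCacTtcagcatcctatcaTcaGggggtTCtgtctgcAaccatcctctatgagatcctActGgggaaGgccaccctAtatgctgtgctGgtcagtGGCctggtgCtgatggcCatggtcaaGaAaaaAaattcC

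Member rows took 0.666% to 1.21% of the counts of a library. The alpha and beta constant genes held 89.4% of all member counts, the TRAV rows 6.90%, the TRBV rows 2.03%, the TRBJ rows 0.714% and the TRAJ rows 0.641%. The filter on low counts left 108 members to test, and the 131 that were not tested had a median of 12 counts over all 12 libraries and at most 109. At an adjusted p under 0.05 (edgeR), 10 tested members were called, which is 9.26% of them beside 18.0% of all 12719 genes tested. The BCL6-insufficient mice had the higher level for 8 of them (9.17% of all genes were called in that direction) and the lower level for 2 (8.82% of all genes). Among the tested members, 18 lay above and 8 below without overlap between the mice of the labels, beside 34.4% of all genes tested in either direction. With TPM in place of counts, log2(TPM + 1), the members called were 4 higher and 4 lower. The plot of fold changes shows where the calls lay by class.

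**Figure D1:**
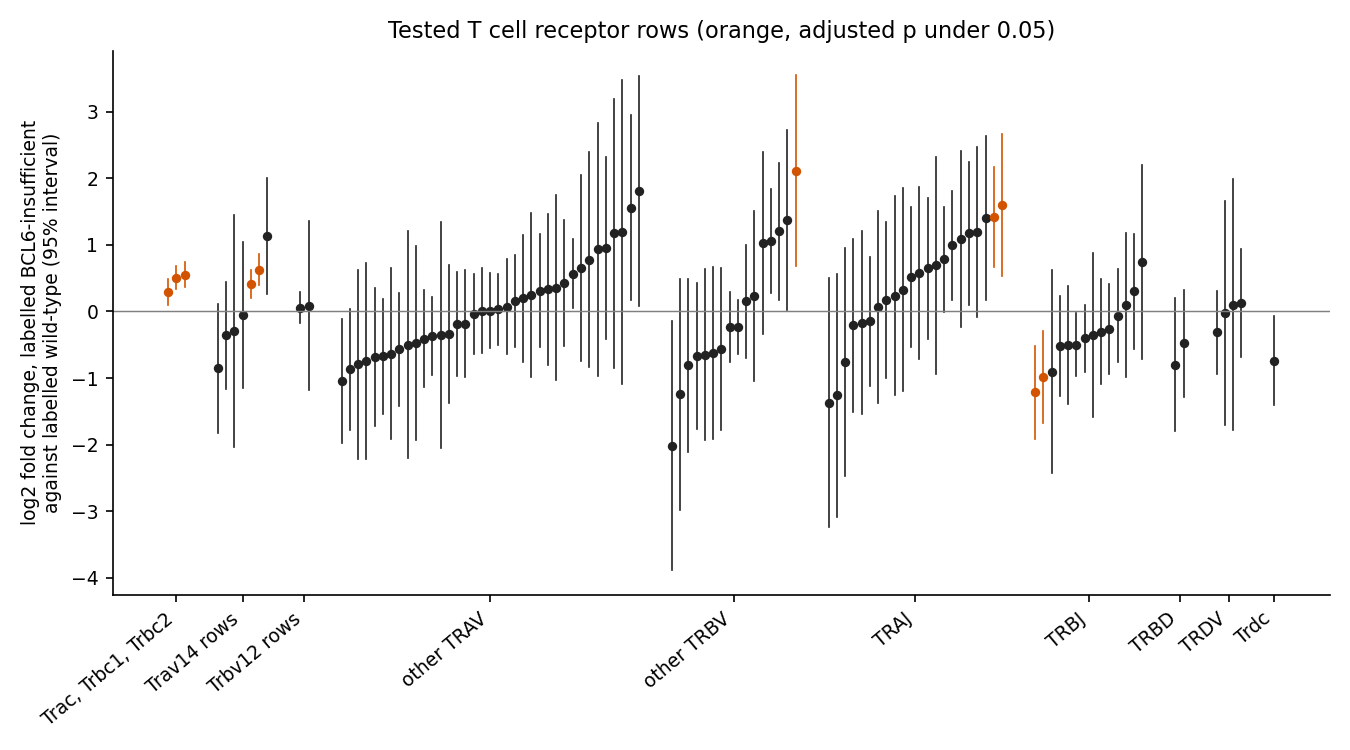
Log2 fold change of the 108 tested members (points) with 95% intervals (lines), BCL6-insufficient against wild-type label, grouped by class along the horizontal axis and sorted within each. The 10 called members are in orange, with 3 constant genes, 2 *Trav14* rows, 1 TRBV row and 2 TRAJ rows above 0 and 2 TRBJ rows below 0.

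The alpha and beta constant genes rose together, all 3 of 3. *Trac* (chr14:54220521-54224206, plus strand), the only alpha constant gene, was at 7307, 6618 and 7101 normalized CPM in the mice labelled BCL6-insufficient and at 5248, 5041 and 4025 in those labelled wild-type. Every BCL6-insufficient mouse was above every wild-type mouse, with a log2 fold change of 0.55 (SE 0.09, 95% interval 0.37 to 0.74, adjusted p = 0.000151, edgeR). *Trbc2* was at 2862, 2692 and 2425 against 1924, 1936 and 1752 normalized CPM, again without overlap (log2 fold change 0.51, SE 0.08, adjusted p = 0.000209). *Trbc1* had the smallest estimate of the 3, with 523, 519 and 526 against 427, 472 and 384 normalized CPM and a log2 fold change of 0.29 (SE 0.09, adjusted p = 0.0312). Its call was lost when any mouse but wild-type mouse 2 was left out (adjusted p 0.0526 to 0.186), with the repeats numbered 2 alone (0.258) and with TPM (0.138 with either pseudocount). Per kilobase of the longest annotated transcript, the mean levels were 7496 and 5103 normalized CPM for *Trac*, 3843 and 2703 for *Trbc2* and 709 and 580 for *Trbc1*, in the order BCL6-insufficient and wild-type.

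The share of *Trbc2* in the counts of both beta constant genes was 84.6%, 83.8% and 82.2% in the BCL6-insufficient mice and 81.8%, 80.4% and 82.0% in the wild-type mice. The means of 83.5% ± 1.22 and 81.4% ± 0.878 (SD, n = 3 mice) did not overlap mouse by mouse, but 3 mice against 3 cannot give a p below 0.1 in a two-sided exact permutation test, and the test gave p = 0.1 (0.3 after Benjamini-Hochberg adjustment over the 6 shares and levels tested this way). The difference was 0.991 percentage points with the repeats numbered 1 alone, where the mice overlapped, and 2.78 with the repeats numbered 2 alone, and single libraries overlapped (80.3% to 84.7% against 79.98% to 82.8%). Because both genes share stretches of identical sequence, with 28.7% of the 100-base windows of *Trbc1* and 30.9% of those of *Trbc2* also present in the other, the split depends on the reads that could be placed.

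**Figure D2:**
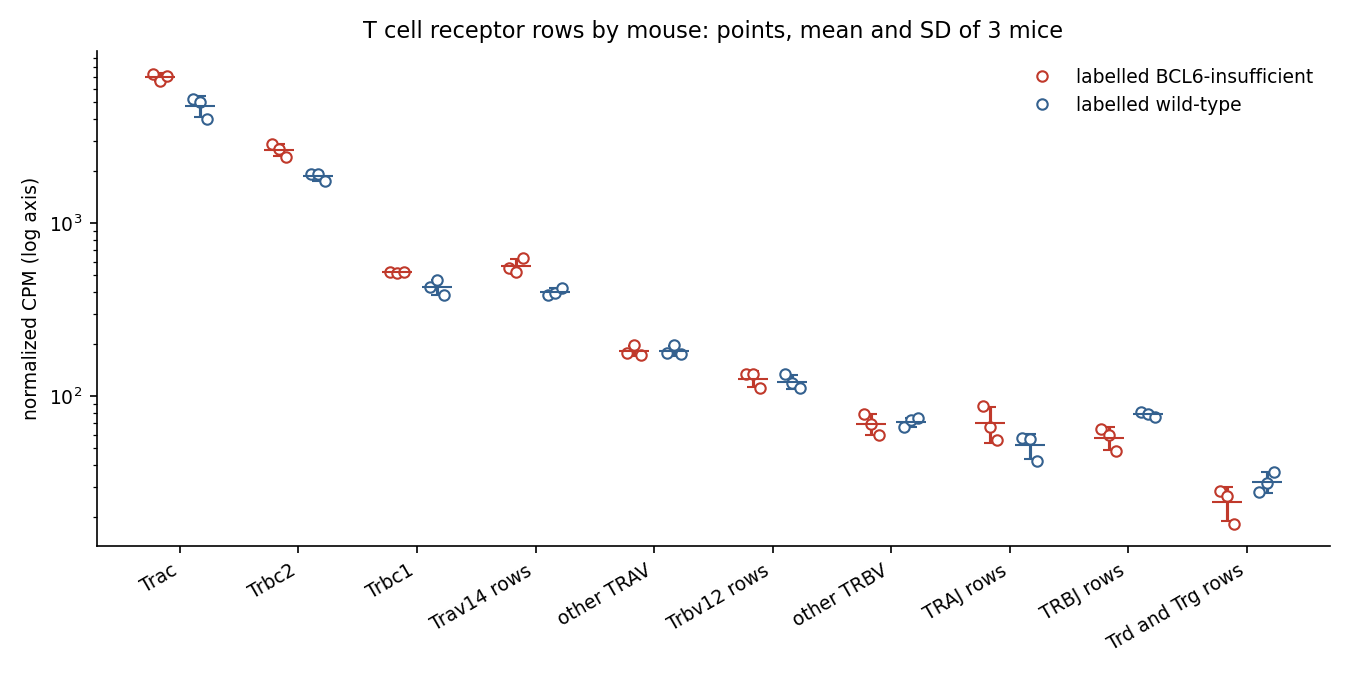
Normalized CPM on a log axis for the constant genes and for the summed rows of each class, with a point for each mouse and the mean and SD of 3 mice for each label. *Trac*, *Trbc1*, *Trbc2* and the summed *Trav14* rows lie higher in every BCL6-insufficient mouse, the summed TRBJ rows lie lower, and the other TRAV, other TRBV and *Trbv12* sums overlap.

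The V alpha 2 family held most of the alpha V counts in every library. The *Trav14* rows took 75.5%, 72.4% and 78.4% of TRAV counts in the BCL6-insufficient mice and 68.5%, 66.8% and 70.6% in the wild-type mice. The ranges did not overlap, and the means were 75.4% ± 2.96 and 68.6% ± 1.94 (SD, n = 3 mice; exact permutation test, p = 0.1, adjusted 0.3). The single libraries of the labels did overlap, at 70.1% to 79.0% against 59.7% to 72.6%. The difference of the means was 6.81 percentage points, but 2.48 from the first repeats alone and 11.1 from the others alone.

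The summed level of the *Trav14* rows was 549, 520 and 628 normalized CPM against 386, 396 and 423, a ratio of 1.41. Single libraries overlapped (418 to 741 against 290 to 531), as did the mice with the repeats numbered 1 alone. The summed level was chosen after the values were seen, and no p is given for it. *Trav14n-1* rose by 0.41 on the log2 scale (SE 0.10, adjusted p = 0.00735), from 211, 214 and 202 normalized CPM in the wild-type mice to 246, 267 and 319. *Trav14d-1* rose by 0.62 (SE 0.11, adjusted p = 0.000489), from 157, 166 and 206 to 285, 236 and 295. Both calls were lost in the first repeats alone (adjusted p = 0.173 and 0.0581) and with TPM. Together these rows held 94.7% to 98.0% of the family's counts in a library, and the share of *Trav14n-1* within the pair ran from 42.4% to 57.3%. Since their annotated transcripts are identical, how the counts were divided between them is uncertain. Reads that align to both rows could also have been left out or counted at both. The sum of these rows, the V alpha 2 share and the *Trac* counts per *Trav14* count therefore depend on how such reads were handled.

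The other *Trav14* rows were low. *Trav14-1*, shown above beside *Trav14n-1*, was at 6.84, 4.63 and 4.73 against 1.37, 2.76 and 3.23 normalized CPM, without overlap, and its log2 fold change of 1.13 (SE 0.42, adjusted p = 0.0635) did not pass. *Trav14-3* (log2 fold change -0.36), *Trav14-2* (-0.85), *Trav14d-3-dv8* (-0.05) and *Trav14n-3* (-0.30) did not pass either, with adjusted p from 0.227 to 0.964. *Trav14d-2* and *Trav14n-2* had too few counts to test. In all, 2 of 7 tested rows of the family were called, beside 18.0% of all genes tested. These 2, *Trav14n-1* and *Trav14d-1*, have identical transcripts and are not separate results.

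The V beta 5 family also held most of the beta V counts. The *Trbv12* rows took 63.0%, 65.9% and 65.1% of TRBV counts in the BCL6-insufficient mice and 66.9%, 62.1% and 60.0% in the wild-type mice, so the labels overlapped (64.7% ± 1.48 against 63.0% ± 3.57, SD, n = 3 mice; exact permutation test, p = 0.6, adjusted 0.9). That difference was -3.49 percentage points with the repeats numbered 1 alone and 6.70 with the repeats numbered 2 alone. *Trbv12-2* carried 95.8% to 99.9% of the family's counts. Its values were 133, 131 and 110 normalized CPM against 134, 117 and 109, and its log2 fold change of 0.06 had a 95% interval of -0.17 to 0.29 (adjusted p = 0.767), while with log2(TPM + 1) its sign turned (-0.044). *Trbv12-1* stood at 1.94 ± 0.753 and 1.81 ± 1.14 normalized CPM (SD, n = 3), with a log2 fold change of 0.09 (adjusted p = 0.944).

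**Figure D3:**
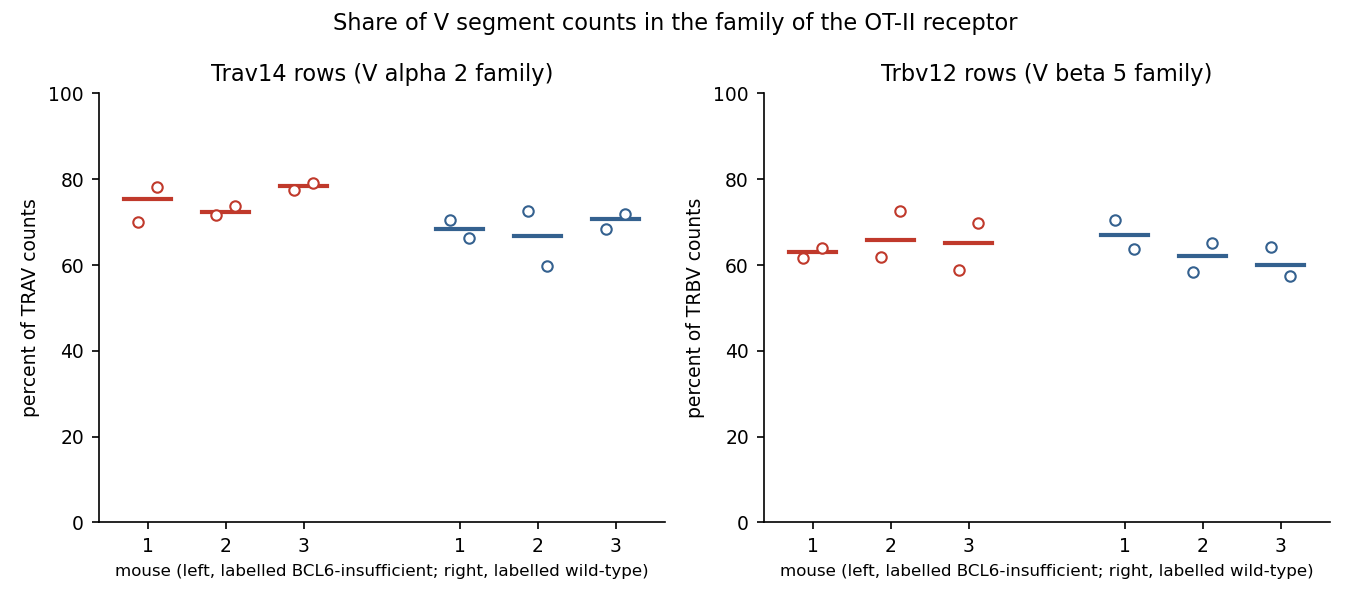
Percent of TRAV counts on *Trav14* rows (left) and of TRBV counts on *Trbv12* rows (right), with an open circle for each library and a bar for each mouse, both repeats summed. The *Trav14* bars of the BCL6-insufficient mice, 72.4% to 78.4%, lie above those of the wild-type mice, 66.8% to 70.6%, while the *Trbv12* bars overlap.

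Constant gene counts were also set against the V counts of the same mouse. For each *Trbv12* count there were 25.1, 24.0 and 26.5 counts of *Trbc1* and *Trbc2* in the BCL6-insufficient mice and 17.5, 20.2 and 19.1 in the wild-type mice. All 6 libraries with the BCL6-insufficient label (22.9 to 27.4) lay above all 6 with the wild-type label (17.3 to 20.4). For each *Trav14* count there were 13.3, 12.7 and 11.3 *Trac* counts against 13.6, 12.7 and 9.52, and here the mice of the labels overlapped. Both ratios were formed after the values had been seen and carry no p. Both are ratios of counts without a length correction, so their sizes are not to be compared with each other.

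**Figure D4:**
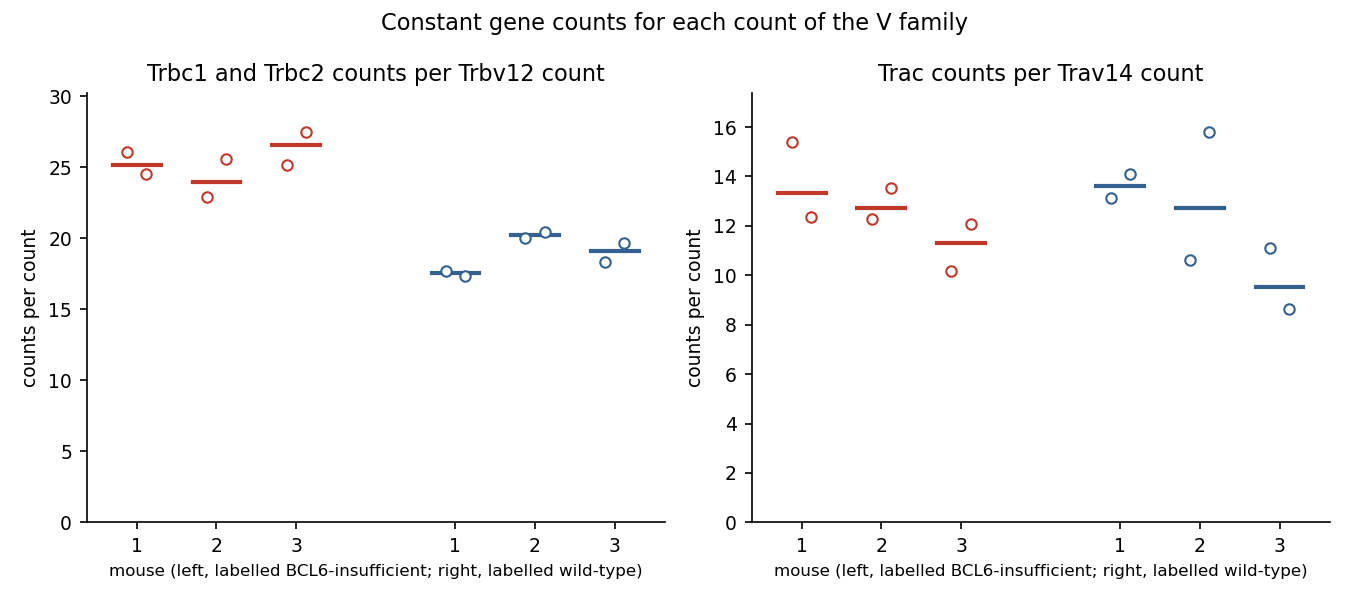
Counts of *Trbc1* and *Trbc2* per *Trbv12* count (left) and of *Trac* per *Trav14* count (right), with an open circle for each library and a bar for each mouse. On the left the 2 labels are apart in all 12 libraries, on the right they overlap.

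J segments are short exons that the constant segment is spliced to. The TRAJ rows are 29 to 72 bases long and the TRBJ rows 46 to 54. Of 22 tested TRAJ rows, 2 were higher and none lower, with a median log2 fold change of 0.55 and 16 positive values. Of 14 tested TRBJ rows, none was higher and 2 were lower, with a median of -0.38 and 11 negative values. The median over all genes tested was 0.01. The called share was 9.09% of the TRAJ and 14.3% of the TRBJ rows, beside 18.0% of all genes (9.17% higher, 8.82% lower). An unadjusted p under 0.05 was found for 5 of the TRAJ and 3 of the TRBJ rows, a smaller share than the 3937 of 12719 over all genes. The 4 called segments are printed whole, 5′ to 3′, to show how little sequence each count rests on.

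Traj27: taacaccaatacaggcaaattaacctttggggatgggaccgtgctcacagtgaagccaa

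Traj8: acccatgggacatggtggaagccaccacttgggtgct

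Trbj1-4: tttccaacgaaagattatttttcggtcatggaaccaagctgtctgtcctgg

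Trbj1-5: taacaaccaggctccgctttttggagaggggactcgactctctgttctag

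*Traj27* (chr14:54192303-54192361, plus strand) was at 7.93, 7.00 and 7.61 normalized CPM with the BCL6-insufficient label and at 2.11, 4.09 and 2.25 with the wild-type label, without overlap (log2 fold change 1.42, SE 0.36, adjusted p = 0.00881), and its call was lost with the repeats numbered 2 alone (adjusted p = 0.1205). *Traj8* (chr14:54209918-54209954, plus strand), annotated as a pseudogene, was at 4.66, 4.81 and 2.16 against 1.56, 1.16 and 1.13 (log2 fold change 1.60, SE 0.52, adjusted p = 0.0330). The *Traj8* call rests on 185 counts in all and was lost when any mouse but BCL6-insufficient mouse 3 was left out (adjusted p 0.0552 to 0.132) and with either repeat alone (adjusted p = 0.0624 and 0.309). Of the other TRAJ rows with most counts, *Traj19* (0.78), *Traj18* (0.99), *Traj33* (0.65) and *Traj49* (-0.15) had log2 fold changes that did not pass, with adjusted p from 0.0870 to 0.866. Summed over all 60 TRAJ rows, the level was 88.3, 66.5 and 56.2 normalized CPM against 57.1, 56.9 and 42.4, which overlapped.

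*Trbj1-4* (chr6:41534811-41534861, plus strand) fell by 1.22 on the log2 scale (SE 0.34, adjusted p = 0.0143), from 9.25, 9.60 and 5.56 normalized CPM in the wild-type mice to 3.49, 3.67 and 3.29. *Trbj1-5* (chr6:41535084-41535133, plus strand) fell by 0.99 (SE 0.33, adjusted p = 0.0417), from 9.43, 8.09 and 9.01 to 5.46, 5.42 and 2.36. With the repeats numbered 1 alone, both calls were lost (adjusted p = 0.204 for *Trbj1-4* and 0.413 for *Trbj1-5*). The *Trbj1-4* call was also lost without wild-type mouse 1 or 2 (adjusted p = 0.0627 and 0.0692), and the *Trbj1-5* call without BCL6-insufficient mouse 3 or without any of the wild-type mice (adjusted p 0.0674 to 0.136). *Trbj2-7* (-0.50), *Trbj2-6* (-0.41) and *Trbj2-1* (-0.26) had negative log2 fold changes that did not pass. The 14 TRBJ rows summed to 65.0, 60.1 and 48.3 normalized CPM against 81.3, 79.6 and 75.8, without overlap and with a ratio of 0.733 (log2 difference -0.45). The log2 difference was -0.26 with the repeats numbered 1 alone, where the mice overlapped, and -0.67 with the repeats numbered 2 alone, and single libraries overlapped (41.6 to 72.6 against 69.3 to 87.9). The cluster upstream of *Trbc1* summed to 22.1 ± 3.64 against 33.0 ± 3.31 and the cluster upstream of *Trbc2* to 35.7 ± 5.68 against 45.9 ± 0.546 (SD, n = 3 mice). Each cluster was lower in every BCL6-insufficient mouse than in any wild-type mouse. The D segments *Trbd1* and *Trbd2*, the short pieces between V beta and J beta, had negative fold changes and neither passed the test.

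Counts on V segments outside the families of the OT-II receptor can come from OT-II cells or from other T cells, and from rearranged or unrearranged genes, which cannot be told apart here. The cells were sorted as OT-II Tfh cells, a sort that would leave out T cells of the CD45.1 host, and what remained of these was not measured. Some of these rows are annotated as pseudogenes, such as *Trav8-2* with 674 counts and *Trbv24* with 147, named after their values were seen. The sums of these rows differed between the labels by less than the spread between mice when both repeats were added up. The repeats taken alone lay beyond that spread with opposite signs, at log2 differences of 0.19 for TRAV and 0.35 for TRBV with the repeats numbered 1 and of -0.18 and -0.39 with the repeats numbered 2. The 109 TRAV rows other than *Trav14* summed to 178, 198 and 173 normalized CPM in the BCL6-insufficient mice and to 178, 197 and 176 in the wild-type mice (183 ± 12.9 against 184 ± 11.9, SD, n = 3; exact permutation test, p = 1.0). The 26 TRBV rows other than *Trbv12* summed to 79.1, 69.4 and 59.6 against 66.3, 72.6 and 74.5 normalized CPM (exact permutation test, p = 0.8, adjusted 0.96). Of 37 such TRAV rows tested none was called (edgeR), while 4 had an unadjusted p under 0.05 (3937 of 12719 over all genes), and their median log2 fold change was 0.01.

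The other TRAV counts were spread over many segments. A count was found on 99 of these rows, the leading 5 rows held 30.3% of the counts and the leading 10 held 50.2%. *Trav17*, the most abundant, took a median of 2.45% of all TRAV counts over the 12 libraries (0.577% to 3.95%), and its log2 fold change of 0.57 (SE 0.25, adjusted p = 0.123) did not pass. *Trav12-3* (0.03) and *Trav21-dv12* (-0.36) did not pass either. In a sort order along the locus, the 36 such rows nearest the J segments held 85.6% of the counts on the rows outside the family that could be placed, the 35 in the middle 8.55% and the 36 farthest away 5.88%. The 60 placed rows whose names mark them as d or n copies held 10.9% of these counts. Copies with identical transcripts made up 30 of the 116 placed TRAV rows. Reads that align to more than 1 copy can be left out or counted at each copy. How such reads were counted is not given in the sources used here and was not tested. The identical copies *Trav7d-5* and *Trav7n-5*, with 9 counts each, had equal counts in every library, while *Trav14n-1* and *Trav14d-1* did not.

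**Figure D5:**
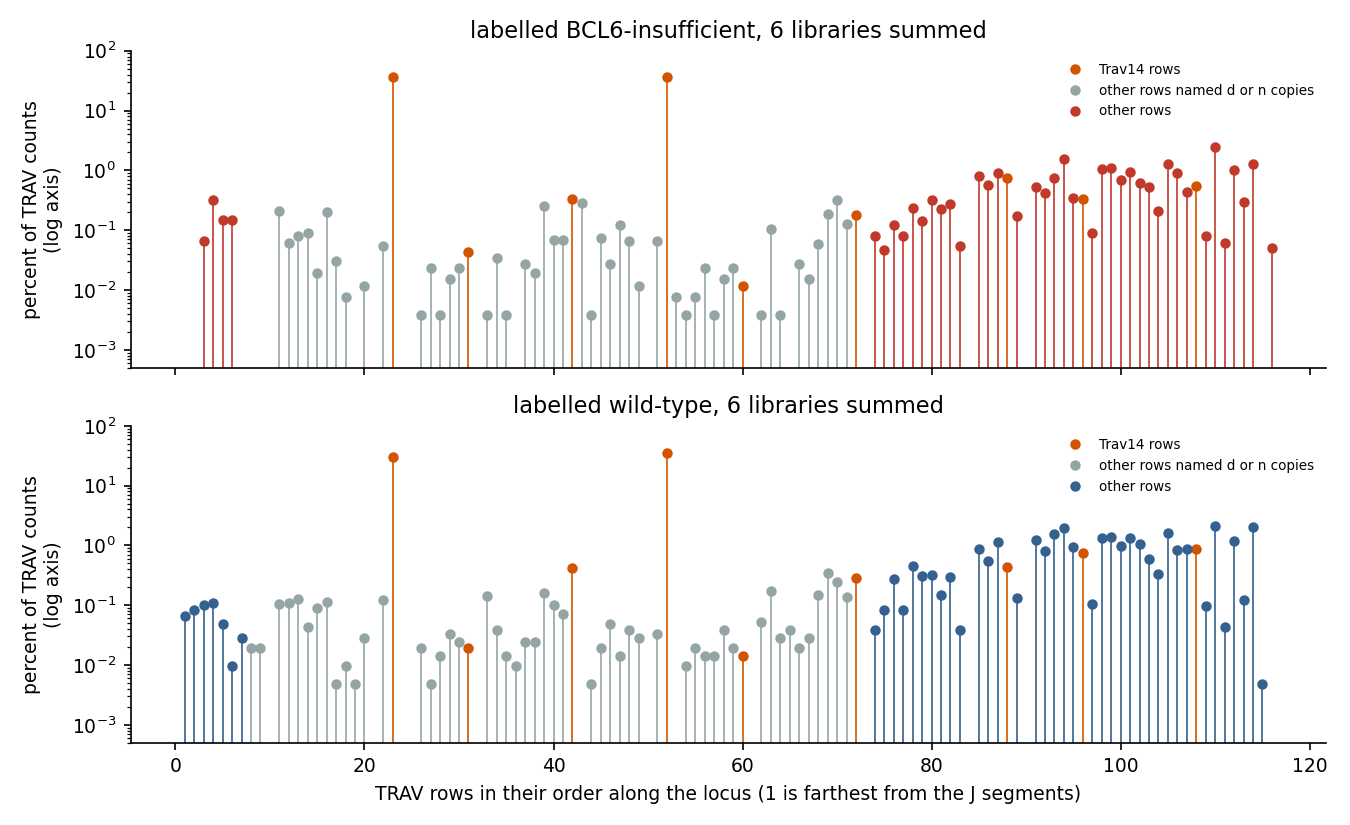
Percent of TRAV counts (log axis) on each TRAV row in its order along the alpha locus, summed over the 6 libraries of each label, with rows at 0 left out. *Trav14* rows are in orange and d or n copies in grey, and with either label the rows near the J segments hold most of the counts that are not on *Trav14* rows.

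The other TRBV counts were concentrated in fewer rows. *Trbv31*, which lies beyond *Trbc2* at the far end of the beta locus, held 35.8% of them and 7.86% to 18.7% of all TRBV counts in a library. It was at 26.9, 25.7 and 16.2 against 28.4, 24.3 and 28.5 normalized CPM, with overlap (log2 fold change -0.23, adjusted p = 0.451). *Trbv13-2* (-0.24) and *Trbv1* (0.15) did not pass, nor did *Trbv26* (1.06, SE 0.38, adjusted p = 0.0562), though its mice did not overlap and 5 of 16 alternatives called it (adjusted p from 0.0336). *Trbv13-1* (chr6:41116007-41116468, plus strand) was the only TRBV row called, at 2.91, 1.75 and 4.32 against 0.0916, 0.711 and 1.20 normalized CPM (log2 fold change 2.11, SE 0.69, adjusted p = 0.0365). With 127 counts in all, its call was lost without BCL6-insufficient mouse 1 or 3 or wild-type mouse 1 or 2 (adjusted p 0.0842 to 0.164), with the repeats numbered 1 alone (0.145) and with TPM (0.0948 and 0.117).

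Repeats of the same mouse differed widely in these rare segments. Among rows with 20 to 200 counts in a mouse, the normalized values of the repeats were over 3-fold apart in 35.3% of the 156 row and mouse pairs for other TRAV rows and in 25% of the 56 for other TRBV rows. The share was 16.4% for TRAJ rows, 7.25% for TRBJ rows and 10.4% for tested genes that are not receptor segments.

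The gamma rows were close to 0 and the delta rows low. *Trdc*, the delta constant gene (chr14:54142851-54148868, plus strand), held 923 counts in all and was at 13.3, 11.8 and 3.39 against 12.6, 18.0 and 17.3 normalized CPM (log2 fold change -0.74, SE 0.32, adjusted p = 0.117). It was called in 2 of 17 alternatives, with the repeats numbered 2 alone (adjusted p = 0.0163) and with the looser filter of 1 count in any mouse (0.0289), and stood at -0.03 with the repeats numbered 1 alone. *Trdv1* (-0.31), *Trdv2-2* (0.13), *Trdv5* (-0.03) and *Trdv2-1* (0.10) had log2 fold changes that did not pass, and *Trdv4* was not tested. The gamma rows added 15 counts, of which *Trgc1* held 9, *Trgv7* 3, *Trgv6* 2 and *Trgc2* 1, while *Trgv3* and *Trgc4* were at 0. All gamma and delta rows summed to 24.4 ± 5.38 against 32.0 ± 4.34 normalized CPM (SD, n = 3; exact permutation test, p = 0.2, adjusted 0.4), and only 0.744% of these counts fell on gamma rows. *Trdc* and the *Trdv* rows lie inside the alpha locus. Exons of *Trdc* and *Trdv5* overlap on opposite strands, and *Trdv2-1* and *Trdv2-2* overlap an antisense gene, so their counts are uncertain without strand.

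Genes that work with the receptor were also examined. Of the 5 genes of the CD3 complex and coreceptor, none was higher and 1 was lower, beside 9.17% and 8.82% of all genes tested. *Cd3d* (log2 fold change 0.00, adjusted p = 0.996), *Cd3g* (0.11), *Cd247* (-0.03) and *Cd3e* (-0.26, adjusted p = 0.0665), which encode the signaling chains, did not pass. *Cd4*, the coreceptor for MHC class II, fell by 0.34 on the log2 scale (SE 0.12, adjusted p = 0.0446), though its mice overlapped. *Sh2d1a*, which encodes SAP, was at 363 ± 25.1 and 374 ± 28.3 normalized CPM (SD, n = 3).

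Of 8 tested genes for receptor gene assembly 2 were lower, *Dntt* and *Xrcc5*, beside 8.82% of all genes tested. *Dntt*, whose product adds bases at the junctions, was at 0.340 ± 0.165 against 2.92 ± 1.11 normalized CPM (SD, n = 3; log2 fold change -3.05, SE 0.69, adjusted p = 0.00342), with 116 counts in all. *Xrcc5*, a DNA end-joining gene, fell by 0.54 on the log2 scale (adjusted p = 0.0193). *Rag2*, a subunit of the recombinase, had 6 counts and *Ptcra*, the partner of beta in the thymus, had 0. *Rag1*, the other subunit, had no row among the counts and was not assessed. Of 12 transcription factors known to act at receptor loci, 1 was higher and 4 were lower, beside 9.17% and 8.82% of all genes tested. *Runx3* was higher (0.47), *Ets1* (-0.65), *Lef1* (-0.60), *Tcf3* (-0.93) and *Tcf7* (-0.27) were lower, and the other 7 did not pass. *Xrcc5* and these factors were not among the genes the naming rule covers and were named after their values were seen.

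Markers of other cells were compared for the same mice. Among all genes tested, 18.0% were called (9.17% higher, 8.82% lower) and 34.4% did not overlap between the labels. Of the CD8 T cell list, *Cd8b1* was at 25.7 ± 5.57 against 34.1 ± 6.92 normalized CPM (SD, n = 3; adjusted p = 0.144), with *Cd8a* near 0. The regulatory T cell list had 2 of 5 tested genes higher and none lower, *Ikzf2* (0.62) and *Nrp1* (0.52). *Foxp3* did not pass (-0.58, adjusted p = 0.314), though every BCL6-insufficient mouse lay below every wild-type mouse. *Gpr83* (-1.64) and *Il2ra* (1.09) did not pass either, both with overlap. The list of gamma delta and innate-like T cells had 1 of 2 tested genes higher, *Cd163l1* (1.97 against 0.363 normalized CPM), and the NK cell list 0 of 1. The B cell list had none of 5 called and a sum of 506 to 698 against 598 to 834 normalized CPM, most of it *Ighm*. In the highest mouse *Cd74* reached 52.3, *Cd79b* 14.6, *Igkc* 13.1, *Cd79a* 10.6 and *Ms4a1* 1.14 normalized CPM, and these overlapped between the labels. The myeloid list had 1 of 3 higher, *Lyz2* (7.77 ± 7.52 against 1.24 ± 1.02), and a sum of 107 to 111 against 80.9 to 87.5, mostly *Cst3*. Without overlap but not called, *Csf1r* was at 9.09 against 5.33 and *Cst3* at 88.4 against 76.8. Among the rows too low to test, *Itgam* was at 1.34 against 0.309, *Tyrobp* at 1.75 against 0.299 and *Fcer1g* at 0.699 against 0.0305, all with overlap, and *Cd14* was at 0. The Tfh list had 3 of 11 higher (*Bcl6*, *Icos* and *Maf*) and 3 lower (*Cxcr5*, *Pdcd1* and *Tox2*). The part of other cells in the receptor values was not tested, and in bulk samples fewer cells of a type and less RNA per cell cannot be told apart.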

How the data were processed

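Messenger RNA of sorted OT-II Tfh cells was measured by SMART-Seq2 in 12 libraries from 6 mice. The authors aligned reads to GRCm38 with HISAT2 2.2.1 and deposited 2 tables: HTSeq-count read counts for every gene, not normalized, and TPM values of 24530 genes. The annotation release, strandedness and handling of reads with several alignments are not given in the sources used here, and without strand an antisense transcript cannot be told from its partner. From the deposited counts, repeats were summed per mouse, scaled by TMM and filtered by filterByExpr, and the labels compared by the quasi-likelihood test of edgeR 4.0.16 (R 4.3.3) with Benjamini-Hochberg adjustment over 12719 genes. Shares and summed levels were compared by two-sided exact permutation tests. Fold changes are BCL6-insufficient against wild-type label. The edgeR p-values weigh a difference against the spread between these recipient mice, which need not include the spread between donors. The repeats differed by more than sampling noise, with a chi-square per gene of 6.42 to 16.1.

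Genes named were the alpha, beta, gamma and delta constant genes, every *Trav14* and *Trbv12* row with a count, the 5 rows with most counts in each V and J class, every called member, and a few genes of related lists. The members and lists were chosen with earlier results of these data known. Of the members, 231 were found by name in GENCODE M21, of which 27 are pseudogenes, and 8 were not. Alternatives were DESeq2 1.42.0, limma 3.58.1 on voom or TPM values (pseudocounts 1 and 0.1), other scalings and filters, each repeat alone, a replicate block and leaving out each mouse. In 1 simulation of this comparison, 200 of 12719 genes, drawn from genes other than those with the lowest mean levels, were given a 2-fold change. There edgeR found 80.5% of those 200, and false calls made up 8% of what it called. These shares need not hold for rows with few counts, such as many of the members. No column was left unmapped. Reads carry no molecular identifiers, so counts are not independent molecules.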

Additional observations from a re-analysis of the deposited data

Results flagged for a closer look

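In all, 4 values of single libraries stood far from the other 5 of their label by Dixon's criterion, out of 38 groups of libraries examined. All came from BCL6-insufficient mouse 3. Chance would give about 1.9 if libraries and groups were independent, but repeats of a mouse and groups that share counts are not. Repeat 1 of BCL6-insufficient mouse 3 was the library with the fewest counts (3343375). Its *Trbc2* share of beta constant counts was 80.3%, with a median of 84.0% in the others. Its *Trav14n-1* level was 401 normalized CPM, with a median of 261 in the others. In repeat 2 the summed *Trbv12* level was 103 normalized CPM (133 in the others) and *Trbv12-2*, which makes up nearly all of it, was at 101 (131 in the others).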

How the results depend on the processing

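Over all genes, the 2288 calls became 1059 and 1446 with repeat 1 or 2 alone, 1305 (390 higher, 915 lower) with log2(TPM + 1), 1260 (374 higher, 886 lower) with log2(TPM + 0.1), and 1424 to 1972 when a mouse was left out, lowest without wild-type mouse 3. The 10 calls among members became 5 of 24 tested with at least 10 counts in every library, 5 with repeat 1 alone, and 6 to 13 when a mouse was left out, lowest without wild-type mouse 1. The log2(TPM + 0.1) scale moved the median of all genes to -0.11. *Trac* lost its call only with log2(TPM + 1) (adjusted p = 0.0528) of its 17 alternatives, *Trbc2* with none of 17, *Trbc1* with 8. The V beta 5 share differed by -3.49 and 6.70 percentage points with repeat 1 or 2 alone, by -0.16 without *Trbv31*, and by 0.141 to 3.62 without a mouse. On the log2 scale, the other TRAV level differed by 0.19 and -0.18 with repeat 1 or 2 alone, 0.013 with the mean of the repeats, 0.0040 with rows of at least 10 counts, and -0.063 to 0.050 without a mouse, and the other TRBV level by 0.35 and -0.39, 0.0034 and (without a mouse) -0.14 to 0.062. With either repeat alone, and with opposite signs, these 3 differences exceeded the spread between mice with both repeats added (2.73 percentage points, 0.096 and 0.157 on the log2 scale). The TRBJ level differed by -0.26 and -0.67 with repeat 1 or 2 alone, and *Trac* counts per *Trav14* count by -0.020 with repeat 2 alone and -0.079 to 0.16 without a mouse. The cause of these changes was not tested.

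Members not called in the comparison of 6 mice also changed sign. With repeat 1 alone the log2 fold change was 0.17 for *Trav14-3*, 0.34 for *Trbv31*, 0.46 for *Trbv13-2*, -0.24 for *Trbv1* and 0.10 for *Trbj2-7*; with repeat 2 alone it was 0.25 for *Trav14d-3-dv8*, -0.083 for *Trav17*, -0.17 for *Trav12-3* and 0.29 for *Traj49*. With voom on 12 libraries it was 0.19 for *Trav14d-3-dv8*, -0.048 for *Trav12-3* and 0.06 for *Traj49*. With log2(TPM + 1) and log2(TPM + 0.1) it was -0.044 and -0.044 for *Trbv12-2*, -0.19 and -0.19 for *Trav12-3*, -0.13 and -0.14 for *Trbv1*, and -0.016 and -0.019 for *Trdv2-2*, and with upper-quartile scaling 0.0055 for *Trdv5*. Without a mouse the ranges were -0.41 to 0.16 for *Trav14d-3-dv8*, -2.03 to 0.95 for *Trav14n-3*, -0.013 to 0.14 for *Trbv12-2*, -0.32 to 0.62 for *Trbv12-1*, -0.25 to 0.27 for *Trav12-3*, -0.065 to 0.98 for *Traj33*, -0.28 to 0.047 for *Traj49*, -0.13 to 0.35 for *Trbv1*, -0.17 to 0.28 for *Trdv2-2*, -1.46 to 0.68 for *Trdv5* and -0.47 to 2.07 for *Trdv2-1*. Of the named members not called, *Trbv26* gained a call in 5 alternatives, *Trbj2-7* in 3 (adjusted p from 0.0351), *Trav17* in 2 (0.0208 and 0.0376), *Trdc* in 2 and *Trav14-1* in 1 (0.0494).

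With the replicate number as a block, 2579 genes and 12 members were called, all 10 called members among them, and the log2 fold changes of *Trav14d-3-dv8* and *Trav12-3* became 0.030 and -0.010. Deviations of same-numbered mice correlated at 0.0852, -0.0283 and 0.0247, so the numbers were not taken to pair the mice. At this depth 131 of 239 members were too low to test, 14 of them with no count.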
